A study of Homo sapiens with 54 samples.

Results

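The 10 genes described here belong to the Hippo pathway output that is read out by the coactivators YAP and TAZ and the TEAD transcription factors: YAP1, WWTR1 (which encodes TAZ), TEAD1, LATS2, AMOTL2, AJUBA, AXL, ANKRD1, CYR61 (also called CCN1) and CTGF (also called CCN2). They were chosen by name, with earlier results of these data known, and all 10 were found among the 27978 genes of the count table. RNA came from MDA-MB-231, a human breast cancer line that lacks the oestrogen receptor, grown in medium with serum. The line was left untreated, given Compound Kushen Injection (CKI, an extract of medicinal plants) at 2 mg/ml, or given a mixture of CKI components at the equivalent dose, for 24 or 48 h, in 18 groups of 3 libraries. Batch 1 held untreated cells, CKI and 4 mixtures at both times. These were N-OmtOspc (N_2, CKI without oxymatrine and oxysophocarpine), N-MacOmtOspc (N_3, also without macrozamin), OmtOspc (OO, the pair oxymatrine and oxysophocarpine alone) and MacOmtOspc (MOO, that pair with macrozamin). Batch 2 held untreated cells, CKI and 4 mixtures at 48 h only, each of them CKI without a single component: N-Mac (N_Mac) without macrozamin, N-Nme (N_Nme) without N-methylcytisine, N-Omt (N_Omt) without oxymatrine and N-Tri (N_Tri) without trifolirhizin. The labels call the controls untreated and name no vehicle for them.

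YAP and TAZ carry no DNA-binding domain of their own and reach their target genes mainly through TEAD factors. In the Hippo pathway the kinases MST1 and MST2 activate the kinases LATS1 and LATS2, which phosphorylate YAP and TAZ so that they are held in the cytoplasm or degraded, and loss of cell tension or attachment acts in the same direction. CTGF, CYR61 and ANKRD1 are the most used transcript readouts of YAP and TEAD, and LATS2, AMOTL2 and AJUBA are both regulators of the pathway and targets of it. RNA levels do not show where the YAP protein is or whether it is phosphorylated.

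Levels are given in CPM (the count of a gene relative to the depth of its library, scaled with TMM factors over all 54 libraries), and DE marks an adjusted p under 0.05 (Benjamini-Hochberg, across every gene tested) in edgeR's quasi-likelihood fit of the 18 libraries of a time and batch. Library totals were between 17673537 and 26138924 counts, and the 10 genes had between 849 and 74841 counts in every library. At 24 h replicates lay further apart than at 48 h (biological coefficient of variation 0.175, against 0.0763 and 0.048 at 48 h in batch 1 and batch 2). In 6 libraries over 5% of 16072 genes differed by over 2-fold from the mean of the other replicates: CKI replicate 1, N-OmtOspc replicate 3, N-MacOmtOspc replicate 2 and OmtOspc replicates 1 and 2 at 24 h, and N-MacOmtOspc replicate 2 at 48 h (5.36% to 11.6%, against 1.46% to 4.72% in the other 48 libraries). For CKI replicate 1, N-MacOmtOspc replicate 2 and OmtOspc replicate 2 at 24 h, this deviation followed the difference between untreated cells of batch 2 and batch 1 over 710 genes with slopes of 0.591 to 0.682, against -0.407 to 0.0984 for the other 33 libraries of batch 1, and these are the libraries whose columns carry no replicate number. They are kept in the groups their labels give, and whether they come from another run or batch was not tested, so values of CKI, N-MacOmtOspc and OmtOspc at 24 h rest in part on them. The genes taken as markers of the line were present (VIM 489.6 to 1562, CD44 328 to 671 and CAV1 75.6 to 784 CPM), which does not by itself identify it. Of the 5 luminal breast markers ESR1 and PGR were at or near 0 (at most 0.33 and 0.092 CPM), FOXA1 was at most 2.8 and TFF1 at most 4.76 CPM, and GATA3 was present in every library at 5.22 to 45.4 CPM. Of the 6 fibroblast markers COL1A1 was present in every library at 8.88 to 64.2 CPM and COL1A2 reached 44.7 CPM, while LUM was at most 6.75, COL3A1 4.81, POSTN 1.01 and DCN 0.723 CPM. The sum of VIM, CD44 and CAV1 was 2288 to 2918 CPM in untreated libraries and 1096 to 2228 in treated ones. The summed luminal markers were 33.9 to 35.6 CPM in untreated cells of batch 1, 17.6 to 19.04 in those of batch 2, 8.06 to 20.5 with CKI and 48.1 to 50.9 with N-OmtOspc at 24 h. The summed fibroblast markers were 11.8 to 83.8 CPM over all libraries. These sums moved with the groups, and their part in the results was not tested. In RNA from whole cultures, fewer cells of a type and less RNA per cell cannot be told apart.

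TEAD factors bind the letters GGAATG or their reverse complement. RefSeq promoters on GRCh38.p14 were read for the 250 bases before each start (the counts were made on hg19, so these coordinates do not belong to the count table), and 8 of the 10 genes matched with 12 starts. TEAD1 and CYR61 had no entry. The letters were present before at least 1 start of CTGF, ANKRD1, YAP1, AMOTL2, AXL and AJUBA, and 11.9% of 35116 promoters of the same length hold them. They were absent before the other start of AMOTL2, AXL and AJUBA and before the starts of LATS2 and WWTR1. That share counts single starts, so it cannot be set directly beside a count of genes. CTGF and ANKRD1 hold more than 1 copy and are shown first, and AMOTL2 and AJUBA are shown as the pathway regulators that fell with CTGF in all 5 treated groups of batch 2. Capitals mark each match to GGAATG on either strand (written CATTCC where it lies on the other strand) and, in ANKRD1, a match to the AP-1 letters TGANTCA, which 6.57% of promoters hold.
CTGF, chr6:131951373-131951622, minus strand: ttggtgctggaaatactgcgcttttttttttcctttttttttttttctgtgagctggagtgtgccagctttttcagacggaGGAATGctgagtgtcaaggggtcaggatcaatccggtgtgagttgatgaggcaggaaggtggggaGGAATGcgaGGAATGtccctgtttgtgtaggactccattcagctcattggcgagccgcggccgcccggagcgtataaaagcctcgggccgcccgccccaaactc
ANKRD1, chr10:90921088-90921337, minus strand: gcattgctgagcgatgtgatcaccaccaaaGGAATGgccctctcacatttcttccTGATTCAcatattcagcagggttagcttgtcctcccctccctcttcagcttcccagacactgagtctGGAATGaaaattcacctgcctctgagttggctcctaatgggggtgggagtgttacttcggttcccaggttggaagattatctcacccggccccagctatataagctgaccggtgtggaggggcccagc
AMOTL2, chr3:134374448-134374697, minus strand: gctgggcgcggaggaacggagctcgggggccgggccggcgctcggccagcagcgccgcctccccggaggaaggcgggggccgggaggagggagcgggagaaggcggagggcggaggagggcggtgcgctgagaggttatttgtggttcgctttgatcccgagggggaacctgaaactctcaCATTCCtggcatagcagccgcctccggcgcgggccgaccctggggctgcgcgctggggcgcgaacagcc
AJUBA, chr14:22976843-22977092, minus strand: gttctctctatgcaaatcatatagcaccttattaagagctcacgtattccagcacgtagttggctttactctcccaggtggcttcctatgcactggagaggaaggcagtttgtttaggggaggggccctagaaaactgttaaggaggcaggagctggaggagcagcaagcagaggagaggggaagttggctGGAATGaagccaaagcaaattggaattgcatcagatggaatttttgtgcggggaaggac
The matches in CTGF begin 169, 104 and 95 bases before the start, those to GGAATG in ANKRD1 220 and 128 bases before it, and the AP-1 match in ANKRD1 195 bases before it. AMOTL2 and AJUBA have 1 match each, 69 and 59 bases before the start shown, and the other start of each gene has none. The CArG box, bound by SRF, was in 1.16% of all promoters and in none of these 12. A match to a few letters is a description of the sequence, not a measured binding site.

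The response of the 10 genes was not uniform. The direction of CTGF, CYR61 and ANKRD1 differed between treatments, and with CKI at 48 h that of CTGF and CYR61 differed between batches. Within batch 1, CTGF, CYR61 and ANKRD1 were not DE in opposite directions at 24 and 48 h with the same treatment. AJUBA was so with N-OmtOspc (0.76 at 24 h and -0.27 at 48 h on the log2 scale). AMOTL2 was so with OmtOspc (0.30 and -0.43), though its call at 24 h was lost without replicate 2 of that group. At 24 h, 2 of the 10 genes were DE with CKI (both higher), where 30% of all genes were DE (15.3% higher and 14.8% lower), 4 with N-OmtOspc (2 higher, 2 lower; 62.1%, 31.1% higher and 30.9% lower of all genes), 4 with N-MacOmtOspc (all lower, and 8 without the 3 libraries that carry no replicate number, but 2 without its replicate 1 or 3; 45%, 23.2% higher and 21.8% lower), 4 with OmtOspc (all higher, 3 without its replicate 1 or 2, and 2 without its replicate 3 or any 1 untreated library; 16.7%, 9.03% higher and 7.72% lower) and 3 with MacOmtOspc (all higher; 10.5%, 5.61% higher and 4.84% lower). At 48 h in batch 1, 9 were DE with CKI (3 higher, 6 lower; 54%, 27% higher and 27% lower), 9 with N-OmtOspc (2 higher, 7 lower; 76.6%, 38.3% higher and 38.3% lower), 9 with N-MacOmtOspc (2 higher, 7 lower; 71.1%, 35.8% higher and 35.3% lower), 6 with OmtOspc (2 higher, 4 lower; 57.8%, 29.1% higher and 28.7% lower) and 4 with MacOmtOspc (3 higher, 1 lower, and 7 in all under some other settings of the processing; 51.2%, 25.7% higher and 25.5% lower). In batch 2, 9 were DE with CKI (2 higher, 7 lower; 66.4%, 32.3% higher and 34.2% lower), 10 with N-Mac (2 higher, 8 lower; 72.4%, 36.9% higher and 35.4% lower), 8 with N-Nme (1 higher, 7 lower; 71.3%, 35.9% higher and 35.4% lower), 8 with N-Omt (1 higher, 7 lower; 78.2%, 38.4% higher and 39.9% lower) and 9 with N-Tri (2 higher, 7 lower; 72.2%, 34.8% higher and 37.4% lower). The shares of all genes were high at 48 h, so that the number of DE genes among the 10 says little by itself and the sizes and directions below carry the description. The median log2 fold change of the 10 genes ran from -0.59 with N-Nme to 0.25 with OmtOspc at 24 h, while the median of all genes tested lay between -0.0073 and 0.031. With library sizes alone in place of TMM factors the median of all genes moved by -0.31 for N-OmtOspc at 24 h against untreated cells and by 0.11 for OmtOspc at 48 h, and changes are given relative to the TMM scaling.

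**Figure D1:**
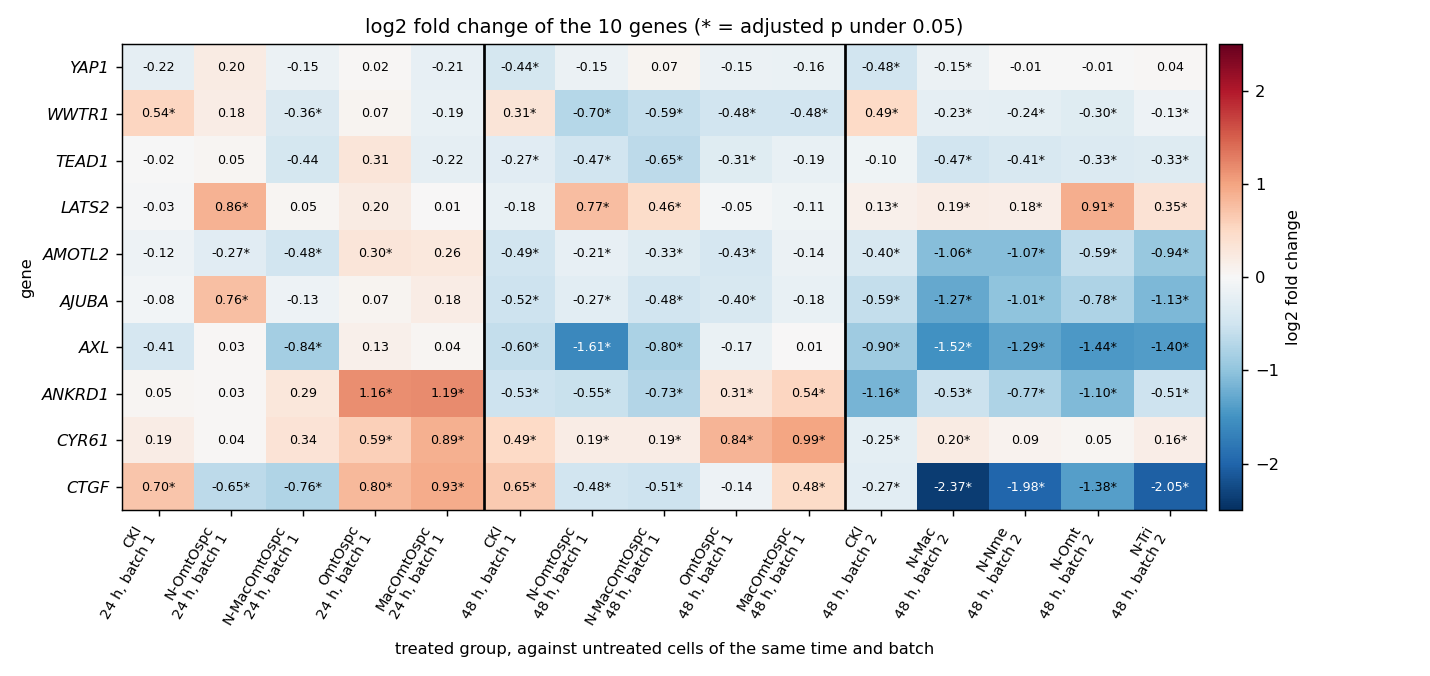
Heatmap of the log2 fold change of the 10 genes (rows) in the 15 treated groups (columns), each against untreated cells of the same time and batch, with 3 libraries per group. Red is higher, blue is lower and an asterisk marks an adjusted p under 0.05. CTGF is red with CKI in batch 1 and blue in all 5 groups of batch 2, down to -2.37 with N-Mac, and WWTR1 is red with CKI in each of its 3 columns and blue in all 8 mixtures at 48 h.

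WWTR1 RNA rose with CKI at both times and in both batches, while YAP1 RNA fell with CKI at 48 h, so that the transcripts of the paired coactivators moved apart. At 24 h WWTR1 was at 72.9, 76.8 and 84.1 CPM in the untreated libraries and at 119, 115 and 107 with CKI. At 48 h it went from 96.8, 84.1 and 94.1 to 116, 112 and 113 CPM in batch 1. In batch 2 it went from 95.9, 103 and 88.5 to 133, 135 and 136 CPM. Every CKI library thus lay above every untreated library of its time and batch. The log2 fold change was 0.54 ± 0.14 at 24 h (SE; adjusted p = 0.00867), 0.31 ± 0.064 at 48 h in batch 1 (adjusted p = 0.000293) and 0.49 ± 0.053 in batch 2 (adjusted p = 1.18e-09), and without CKI replicate 1 it was 0.50 at 24 h (adjusted p = 0.0334). None of the 8 mixtures at 48 h shared this rise. WWTR1 was lower than in untreated cells in all of them, with log2 fold changes of -0.70 for N-OmtOspc, -0.59 for N-MacOmtOspc, -0.48 for OmtOspc and -0.48 for MacOmtOspc. The single removals gave smaller values, from -0.30 with N-Omt to -0.13 with N-Tri, and the last was DE in only 5 of 12 other settings of the processing (adjusted p = 0.0261 as reported). At 24 h WWTR1 fell with N-MacOmtOspc (-0.36, adjusted p = 0.0472; DE in 5 of 13 other settings) and was not DE with the other 3 mixtures. An antisense gene, WWTR1-AS1, had at most 0.524 CPM, and the strand setting of the counting is not given in the sources used here.

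YAP1 was at 256, 232 and 237 CPM in untreated cells and at 176, 184 and 174 with CKI in batch 1 at 48 h. In batch 2 the values were 275, 269.9 and 277 and 198, 194 and 196 CPM. The groups did not overlap in either batch. YAP1 changed by -0.44 ± 0.074 (adjusted p = 2.98e-05) and -0.48 ± 0.046 (adjusted p = 1.13e-10). At 24 h the CKI libraries reached 159.8 to 193 CPM against 191 to 224 in untreated cells, overlapping groups with a log2 fold change of -0.22 ± 0.16 (adjusted p = 0.304). Among the 12 mixture groups YAP1 was DE against untreated cells in N-Mac only (-0.15, adjusted p = 0.00422), and that call was lost with library sizes alone (-0.077). MacOmtOspc, N-OmtOspc and OmtOspc at 48 h came close to a call, at -0.16, -0.15 and -0.15 (adjusted p = 0.0701, 0.0733 and 0.0811). With N-Nme, N-Omt and N-Tri the 95% confidence intervals of the log2 fold change were -0.10 to 0.088, -0.11 to 0.081 and -0.057 to 0.13, so that YAP1 RNA in these groups was within a narrow range of the untreated level.

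TEAD1, the DNA-binding partner on this list, fell in 8 of the 15 treated groups and rose in none. At 48 h in batch 2 it was at 198 to 211 CPM in untreated cells, 188 to 191 with CKI and 138 to 149 with N-Mac. It fell with all 4 single removals, with log2 fold changes of -0.47 with N-Mac, -0.41 with N-Nme, and -0.33 with N-Omt and N-Tri each, but with CKI its value was -0.10 ± 0.047 (adjusted p = 0.0516). In batch 1 at 48 h it fell with CKI (-0.27, adjusted p = 0.00761; not DE without untreated replicate 1, -0.18, or with library sizes alone, -0.19), N-OmtOspc (-0.47), N-MacOmtOspc (-0.65) and OmtOspc (-0.31). At 24 h TEAD1 was not DE in any of the 5 groups, and some of the libraries that stand apart lay far from their replicates. OmtOspc replicate 1 had 104 CPM against 186 and 174 in the other replicates. Without it the log2 fold change with OmtOspc was 0.53 in place of 0.31, not DE in either fit. CKI replicate 1 had 172 CPM against 106 and 92.5 in the other replicates, and N-MacOmtOspc replicate 2 had 133 CPM against 65.2 and 76.9. Without the latter library TEAD1 was lower with N-MacOmtOspc, with a log2 fold change of -0.81 (adjusted p = 0.0212), against -0.44 with it (adjusted p = 0.208).

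LATS2, the kinase that phosphorylates YAP and TAZ, rose with N-OmtOspc at both times, with N-MacOmtOspc at 48 h and with N-Omt, which all lack oxymatrine, and also with the other single removals, which hold it. At 48 h the libraries of N-OmtOspc were at 118, 98.8 and 98.7 CPM and those of N-MacOmtOspc at 87.6, 102 and 68.9, against 65.2, 57.5 and 65.5 in untreated cells. In batch 2 the libraries of N-Omt were at 87.3, 88.2 and 87.2 CPM against 48.3, 47.1 and 44.6 in untreated cells. The log2 fold changes were 0.77 ± 0.10 (adjusted p = 7.05e-07), 0.46 ± 0.11 (adjusted p = 0.000554; 0.32 and still DE without replicate 2, which is below the value with N-Tri) and 0.91 ± 0.056 (adjusted p = 8.82e-16). With the other removals of batch 2 the log2 fold changes of LATS2 were 0.19 with N-Mac, 0.18 with N-Nme and 0.35 with N-Tri, all of them DE. The difference between N-Omt and these removals was not tested directly, while against CKI of the same batch LATS2 was higher with N-Omt by 0.78 ± 0.056 (adjusted p = 5.13e-14). At 24 h N-OmtOspc was at 96.2, 103 and 80.4 CPM against 47.5, 53.3 and 57.5 in untreated cells, a log2 fold change of 0.86 ± 0.13 (adjusted p = 2.98e-05). N-MacOmtOspc, which also lacks oxymatrine, had 52.7, 53.6 and 57.4 CPM at 24 h, a log2 fold change of 0.051 that was not DE (adjusted p = 0.779). With OmtOspc and MacOmtOspc LATS2 was not DE at either time (log2 fold changes of 0.20 and 0.013 at 24 h and -0.054 and -0.11 at 48 h), and with CKI it was DE only in batch 2, at 0.13 (adjusted p = 0.0419), a call that held in 6 of 12 other settings of the processing.

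**Figure D2:**
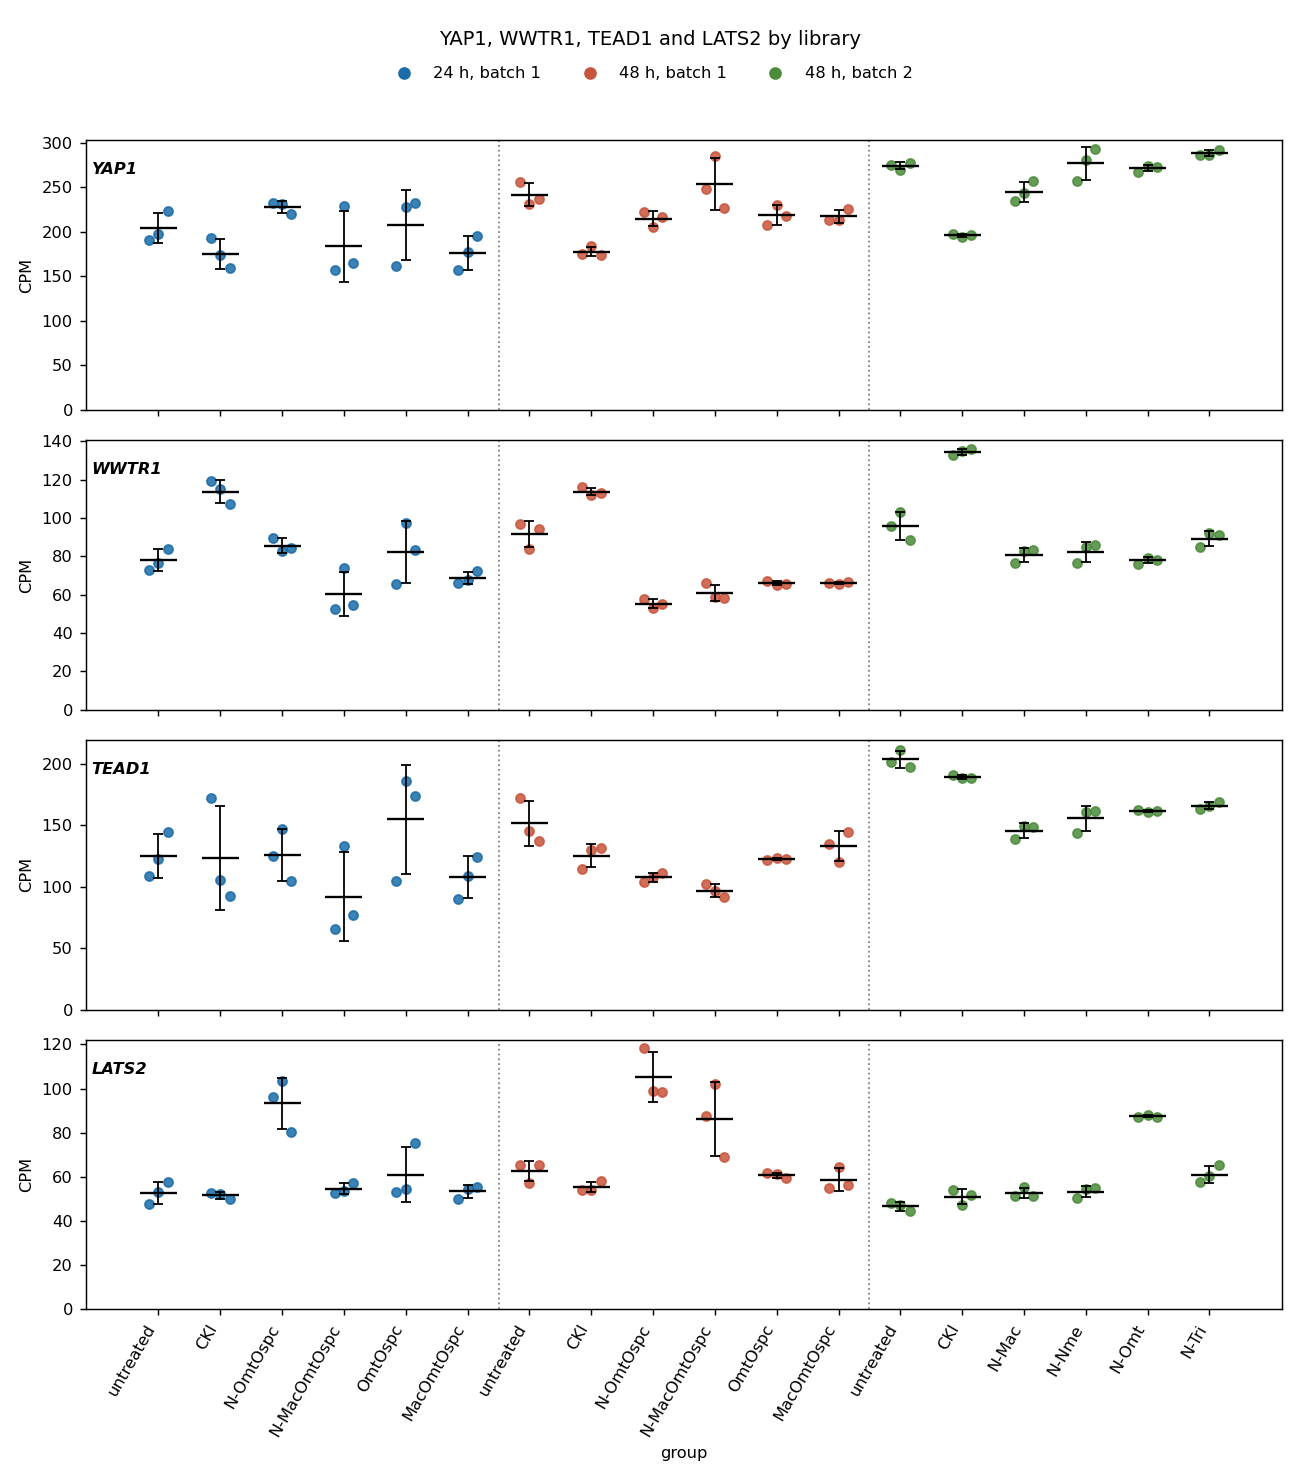
Level of YAP1, WWTR1, TEAD1 and LATS2 (CPM, linear axis from 0) in each library of the 18 groups. Points are libraries, coloured by time and batch, and black lines and bars are the mean and SD of 3 libraries. WWTR1 with CKI lies above the untreated libraries in all 3 blocks, YAP1 with CKI lies below them in both blocks at 48 h, and LATS2 stands out in N-OmtOspc at both times, N-MacOmtOspc at 48 h and N-Omt.

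AMOTL2, AJUBA and AXL fell together at 48 h in most groups. AMOTL2 encodes an angiomotin that holds YAP and TAZ at junctions and in the cytoplasm, AJUBA encodes a LIM protein that binds and inhibits LATS kinases, and AXL encodes a receptor tyrosine kinase. AMOTL2 was lower than in untreated cells in 9 of 10 groups at 48 h by the test, the exception being MacOmtOspc (-0.14). In batch 2 it was at 118, 115 and 106 CPM in untreated cells, 86.6, 85.6 and 83.7 with CKI, 53.5, 53.5 and 53.6 with N-Mac and 57, 52.8 and 53.6 with N-Nme. The untreated libraries lay above all treated libraries of the batch, and the log2 fold changes ran from -0.40 ± 0.05 with CKI (adjusted p = 1.85e-08) to -1.07 ± 0.051 with N-Nme (adjusted p = 2.96e-18). At 24 h it fell with N-OmtOspc (-0.27) and N-MacOmtOspc (-0.48). It rose with OmtOspc at 24 h (0.30, adjusted p = 0.0336), though not without replicate 2 of that group (0.26, adjusted p = 0.118). For the same mixture the value at 48 h was -0.43 (adjusted p = 3.27e-05), and the change of sign between the times was not tested.

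AJUBA was at 287, 282 and 291 CPM in untreated cells of batch 2, 193, 188 and 190.3 with CKI and 118, 115 and 119.5 with N-Mac. It fell in all 5 groups of that batch, with log2 fold changes of -0.59 with CKI (adjusted p = 1.71e-13) and -1.27 with N-Mac (adjusted p = 5.23e-22), and in batch 1 at 48 h it was -0.52 with CKI (adjusted p = 1.1e-05). N-OmtOspc at 24 h stood against this, with 509, 511 and 511 CPM against 305, 306 and 321 in untreated cells. That was a rise of 0.76 ± 0.10 on the log2 scale (adjusted p = 8e-06), and for the same mixture the value was -0.27 at 48 h. With library sizes alone the rise at 24 h was 0.45. The change of sign between the times was not tested.

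AXL was at 884, 822 and 852 CPM in untreated cells of batch 1 at 48 h and at 568, 562 and 553 with CKI. In N-OmtOspc it was at 267, 285 and 273 CPM, the lowest group of all 18. In batch 2 it went from 1071, 1067 and 972 CPM to 562, 545 and 562 with CKI and to between 352 and 445 in the libraries of the single removals. The log2 fold changes were -0.60 ± 0.15 with CKI in batch 1 (adjusted p = 0.00165), -1.61 ± 0.15 with N-OmtOspc (adjusted p = 2.28e-09), -0.90 ± 0.049 with CKI in batch 2 (adjusted p = 1.81e-16) and -1.52 ± 0.05 with N-Mac (adjusted p = 1.5e-22). OmtOspc and MacOmtOspc did not lower AXL by the test at either time, with values of -0.17 and 0.015 at 48 h. Replicates disagreed in 2 groups of AXL. N-OmtOspc at 24 h had 1068, 1319 and 435 CPM and N-MacOmtOspc at 48 h had 389, 719 and 366, and without the library that stands apart in each, the log2 fold changes went from 0.031 to 0.38 (not DE in either) and from -0.80 to -1.18 (DE in both). At 24 h the CKI libraries were at 743, 723 and 671 CPM, all under the untreated ones (936 to 968), with a log2 fold change of -0.41 ± 0.27 that did not pass the test (adjusted p = 0.268). The only group at 24 h in which AXL was DE was N-MacOmtOspc, at 439, 678 and 465 CPM, with a log2 fold change of -0.84 ± 0.27 (adjusted p = 0.0189). It was -1.07 without replicate 2, and not DE without replicate 1 (-0.73) or replicate 3 (-0.76).

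CTGF, which encodes a secreted matricellular protein, had the widest range of the 10 genes. It rose with CKI in batch 1, was slightly lower with CKI in batch 2 and was lower by over 2-fold in every single removal. At 24 h it was at 318, 319 and 311 CPM in untreated cells and at 487, 515 and 544 with CKI. At 48 h in batch 1 it went from 244, 217 and 234 CPM to 372, 369.7 and 351 with CKI. These groups did not overlap, and the log2 fold changes were 0.70 ± 0.13 (adjusted p = 0.000857; 0.74 without CKI replicate 1) and 0.65 ± 0.081 (adjusted p = 6.02e-07). In batch 2 the untreated libraries were at 257, 251 and 258 CPM and those with CKI at 213, 213 and 210.4, a log2 fold change of -0.27 (adjusted p = 4.14e-06). N-Mac libraries were at 49.8, 48 and 49 CPM, N-Nme at 64.7, 64.1 and 68.4, N-Tri at 61.4, 68 and 59.8 and N-Omt at 97.7, 99.4 and 97.4. All 12 lay far below the untreated and CKI libraries, with N-Omt above the other 3 mixtures. Against untreated cells the log2 fold changes were -2.37 ± 0.049 with N-Mac (adjusted p = 1.49e-27), -2.05 ± 0.048 with N-Tri (adjusted p = 3.3e-26), -1.98 ± 0.047 with N-Nme (adjusted p = 1.24e-25) and -1.38 ± 0.046 with N-Omt (adjusted p = 1.43e-22).

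At 24 h CTGF separated the mixtures with oxymatrine and oxysophocarpine from those without. OmtOspc libraries were at 534, 623 and 500.1 CPM and MacOmtOspc libraries at 611, 624 and 581, all above the untreated ones. N-OmtOspc libraries were at 189, 159 and 239 CPM and N-MacOmtOspc libraries at 169, 211 and 178, all below them. The log2 fold changes were 0.80 ± 0.13 (adjusted p = 0.000674), 0.93 ± 0.13 (adjusted p = 0.00026), -0.65 ± 0.13 (adjusted p = 0.000441) and -0.76 ± 0.13 (adjusted p = 0.000237), in that order. At 48 h CTGF was lower with N-OmtOspc (-0.48) and N-MacOmtOspc (-0.51) and higher with MacOmtOspc (0.48, adjusted p = 3.81e-05), and OmtOspc no longer differed by the test (-0.14, 95% confidence interval -0.30 to 0.033).

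CYR61, the matricellular relative of CTGF, rose with OmtOspc and MacOmtOspc, while with the single removals its log2 fold change was at most 0.20. At 48 h in batch 1 it was at 1324, 1350.3 and 1409 CPM in untreated cells, 2543, 2473 and 2345 with OmtOspc and 2593, 2848 and 2716 with MacOmtOspc. CKI libraries lay in between, at 1895, 1908 and 1938 CPM. The log2 fold changes were 0.84 ± 0.077 (adjusted p = 4.04e-09), 0.99 ± 0.077 (adjusted p = 5.2e-10) and 0.49 ± 0.077 (adjusted p = 1.33e-05). At 24 h it went from 1634, 1633 and 1606 CPM to 3069.9, 3115 and 2853 with MacOmtOspc, a log2 fold change of 0.89 ± 0.16 (adjusted p = 0.00209). OmtOspc libraries at 24 h were at 2849.8, 2045 and 2445 CPM, with a log2 fold change of 0.59 (adjusted p = 0.021) that was 0.47 and not DE without replicate 1 (adjusted p = 0.0619). In batch 2 the untreated libraries were at 1043, 988 and 1142 CPM and those with CKI at 895, 865 and 905, a log2 fold change of -0.25 (adjusted p = 4.98e-05). The single removals gave 0.20 with N-Mac (adjusted p = 0.000478), 0.16 with N-Tri (adjusted p = 0.00479; not DE without untreated replicate 2), and 0.087 and 0.055 with N-Nme and N-Omt, neither of them DE. N-OmtOspc and N-MacOmtOspc at 48 h gave 0.19 and 0.19, DE in 8 and 5 of 12 other settings. In the mixtures where CTGF was lowest, CYR61 was therefore at or a little above its untreated level.

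ANKRD1, a nuclear ankyrin repeat protein best known from muscle, rose with the same 2 mixtures and fell with the others at 48 h. At 24 h it was at 352, 378 and 353 CPM in untreated cells, 961, 549.5 and 922 with OmtOspc and 834, 793 and 845 with MacOmtOspc. OmtOspc replicate 2 was the lowest of these treated libraries and still above every untreated one. The log2 fold changes were 1.16 ± 0.16 (adjusted p = 0.000151; 1.37 without replicate 2) and 1.19 ± 0.16 (adjusted p = 0.000185). At 48 h the rises were smaller, 0.31 ± 0.061 with OmtOspc (adjusted p = 0.000157) and 0.54 ± 0.061 with MacOmtOspc (adjusted p = 1.59e-07). CKI libraries at 48 h were at 263, 250.3 and 241 CPM in batch 1, against 369, 359 and 357 in untreated cells. In batch 2 they were at 145, 149 and 148 CPM, against 328, 326 and 332. Treated and untreated libraries were apart in both batches, and ANKRD1 changed on the log2 scale by -0.53 ± 0.061 (adjusted p = 2.36e-07) and -1.16 ± 0.043 (adjusted p = 1.16e-20). Among the single removals N-Omt, at 151, 158 and 151 CPM, was nearest to CKI, and N-Tri, at 243, 234 and 233 CPM, was nearest to untreated cells.

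**Figure D3:**
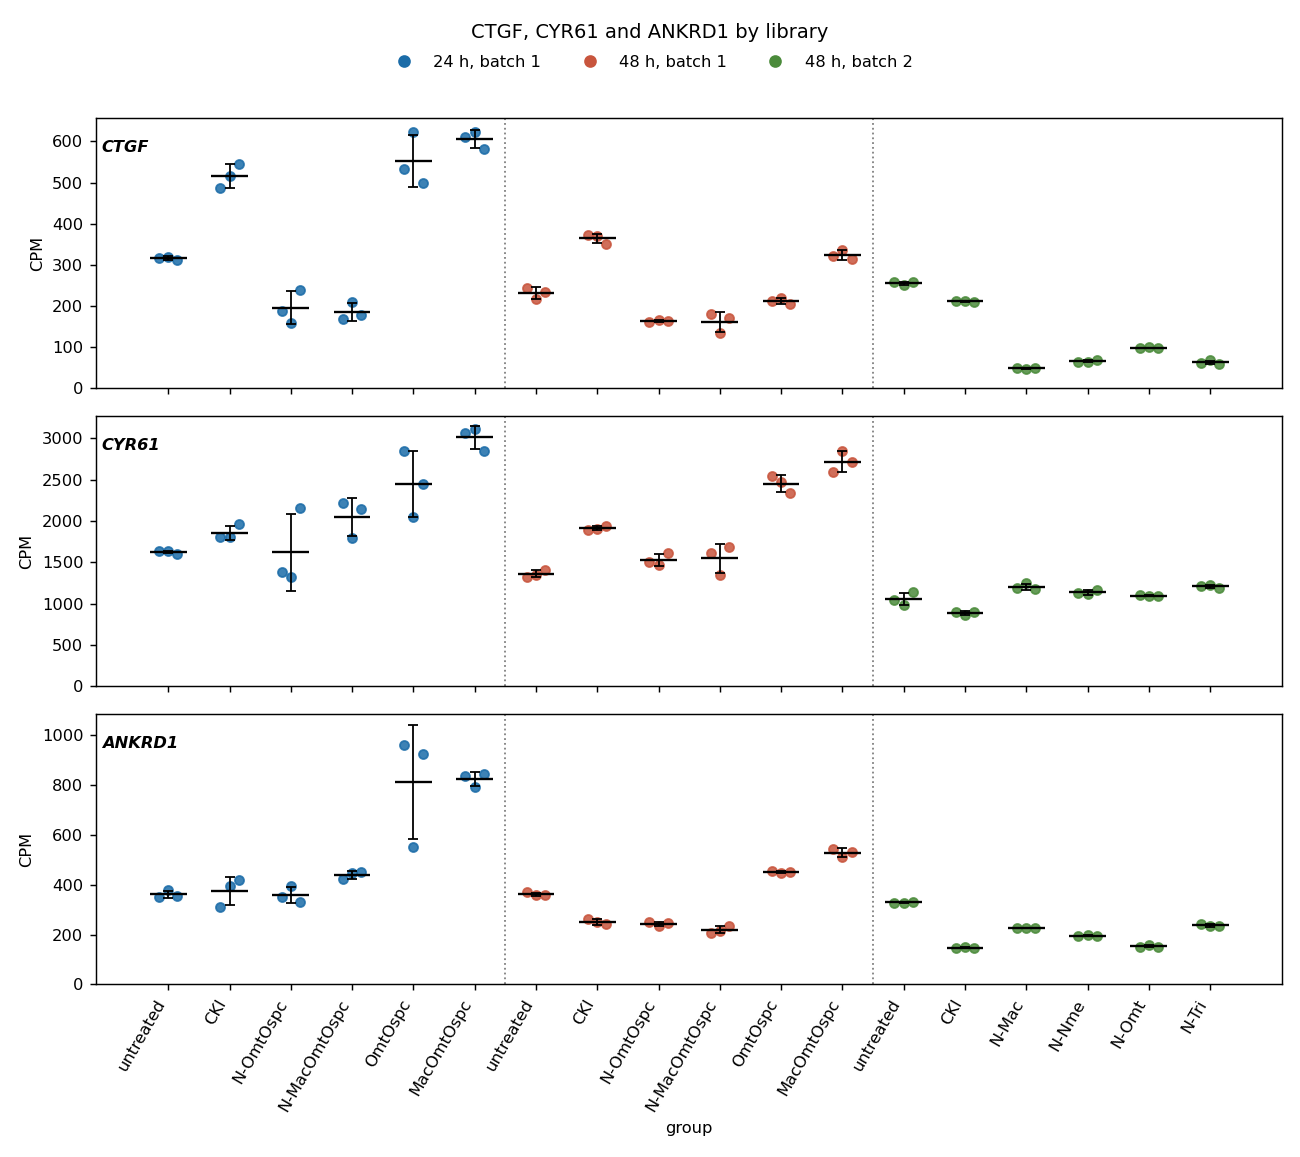
Level of CTGF, CYR61 and ANKRD1 (CPM, linear axis from 0) in each library of the 18 groups. Points are libraries, coloured by time and batch, and black lines and bars are the mean and SD of 3 libraries. CTGF libraries of the 4 single removals lie between 48 and 99.4 CPM, while CYR61 in the same libraries lies between 1089 and 1246 CPM.

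CKI was sequenced in both batches at 48 h, so its effect could be compared between them, and for 5 of the 10 genes it differed (13.8% of all genes). The effect in batch 2 minus that in batch 1 was -0.91 ± 0.065 on the log2 scale for CTGF (adjusted p = 6.91e-09), -0.73 ± 0.071 for CYR61 (adjusted p = 7.4e-07) and -0.62 ± 0.06 for ANKRD1 (adjusted p = 7.82e-07), each fitted in the 12 untreated and CKI libraries at 48 h. For CTGF and CYR61 the sign itself changed, from a rise in batch 1 to a fall in batch 2, and for ANKRD1 the fall was deeper. AXL fell further in batch 2 (-0.28 ± 0.066, adjusted p = 0.00702), and LATS2 differed by 0.32 ± 0.092 (adjusted p = 0.0229), a call lost in 4 of the 12 fits without 1 library. YAP1 and WWTR1 kept their direction, with differences between batches of -0.028 ± 0.064 (95% confidence interval -0.16 to 0.11) and 0.19 ± 0.082 (0.021 to 0.36). Untreated cells of the batches differed as well, in 9 of the 10 genes (60.5% of all genes): the log2 difference of batch 2 minus batch 1 was 0.40 for TEAD1, 0.26 for AXL, 0.16 for YAP1, 0.12 for CTGF, -0.16 for ANKRD1, -0.33 for AJUBA, -0.39 for CYR61, -0.41 for AMOTL2 and -0.45 for LATS2. What the batches stand for is not given in the labels, so differences in the cells, the CKI used and the handling cannot be told apart.

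Between 24 and 48 h in batch 1 the effect of CKI differed by the test for AMOTL2 only (-0.35 ± 0.078, adjusted p = 0.0465), where 1.56% of all genes differed. AMOTL2 with CKI was at 132, 138 and 132 CPM at 24 h and 107, 104 and 104 at 48 h, while untreated cells were at 141, 146 and 150.1 and 147, 144 and 151. The CKI libraries of 48 h lay below all others of this set, but the call held in only 2 of the 12 fits that each left out 1 library. ANKRD1 (-0.56, adjusted p = 0.0516), AJUBA (-0.43, 0.0958) and CYR61 (0.32, 0.0794) came next and did not pass. In untreated cells CTGF and CYR61 were lower at 48 h than at 24 h, with log2 differences of -0.46 (adjusted p = 0.00348) and -0.26 (adjusted p = 0.0212), which made 2 of the 10 genes (9.03% of all genes). That number was 7 with only these 2 groups in the fit, 4 without untreated replicate 3 of 24 h and 1 without any other single untreated library.

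**Figure D4:**
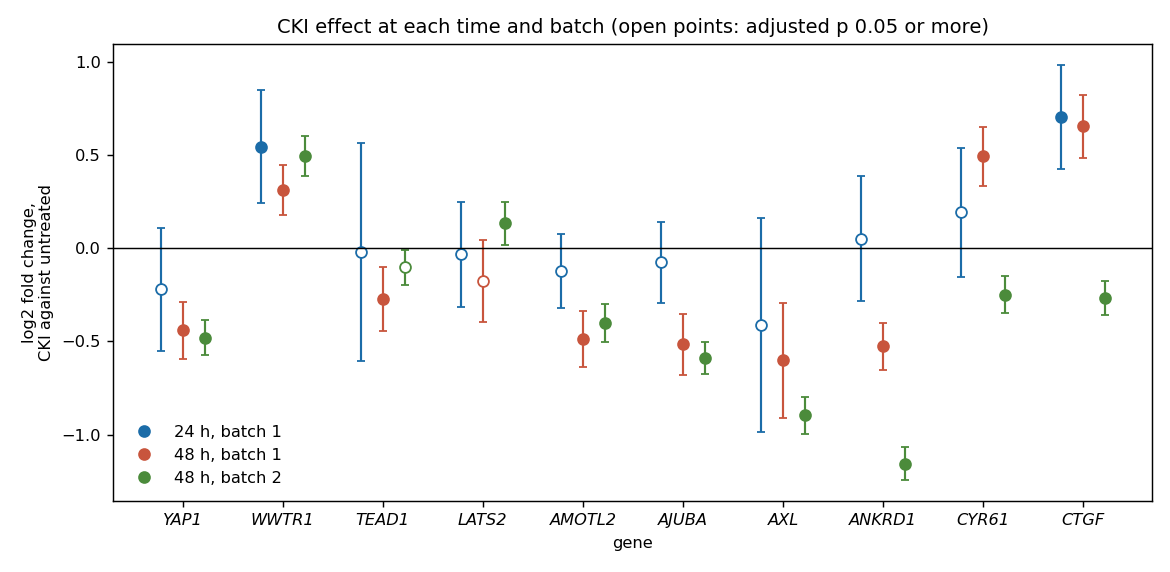
log2 fold change of each of the 10 genes with CKI against untreated cells at 24 h in batch 1, 48 h in batch 1 and 48 h in batch 2 (3 libraries against 3 each). Bars are 95% confidence intervals from the edgeR fits, and open points did not pass an adjusted p of 0.05. WWTR1 is above 0 in all 3, and CTGF and CYR61 lie on opposite sides of 0 in the 2 batches at 48 h.

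Each mixture was also compared with CKI of its own time and batch. No group held CKI that had been taken apart and put back together whole. A missing component and the making of the mixture therefore cannot be told apart. At 24 h 5 of the 10 genes differed for N-OmtOspc (58.7% of all genes; 3 without CKI replicate 2 or N-OmtOspc replicate 1 or 2), 3 for N-MacOmtOspc (35.7%), 2 for OmtOspc (8.49%) and 4 for MacOmtOspc (11.6%). At 48 h in batch 1 the numbers were 9 for N-OmtOspc (73.1%), 7 for N-MacOmtOspc (67.2%), 6 for OmtOspc (51.8%) and 7 for MacOmtOspc (47.6%), and in batch 2 they were 9 for N-Mac (69.4%), 9 for N-Nme (71.5%), 9 for N-Omt (76.3%) and 10 for N-Tri (71.4%). WWTR1 was lower than with CKI in 11 of 12 mixtures, with log2 differences from -0.37 (N-OmtOspc at 24 h, DE in 8 of 13 other settings) to -1.02 (N-OmtOspc at 48 h), and in the twelfth, OmtOspc at 24 h, the value was -0.47 ± 0.14 (adjusted p = 0.0504). YAP1 was higher than with CKI in all 8 mixtures at 48 h, from 0.28 ± 0.074 with MacOmtOspc (adjusted p = 0.00341) to 0.52 ± 0.046 with N-Tri (adjusted p = 1.45e-11). All the comparisons of a time and batch share the same 3 CKI libraries.

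CTGF showed the largest differences from CKI. N-Mac differed by -2.10 ± 0.049 (adjusted p = 4.97e-26), N-Tri by -1.78 ± 0.048, N-Nme by -1.71 ± 0.047 and N-Omt by -1.11 ± 0.046 (adjusted p = 6e-20). N-OmtOspc differed by -1.35 ± 0.13 at 24 h and -1.13 ± 0.082 at 48 h, and N-MacOmtOspc by -1.46 ± 0.14 and -1.17 ± 0.082. Every mixture that left components out of CKI thus had lower CTGF than whole CKI, whichever component was missing, and the making of these mixtures cannot be told apart from the removal. MacOmtOspc did not differ from CKI by the test at either time (0.23, 95% confidence interval -0.05 to 0.51, and -0.18, -0.34 to -0.011). OmtOspc gave 0.10 ± 0.13 at 24 h (adjusted p = 0.714) and was lower than CKI at 48 h, at -0.79 ± 0.081 (adjusted p = 3.54e-08). ANKRD1 was higher than with CKI with OmtOspc (1.11 at 24 h and 0.83 at 48 h) and MacOmtOspc (1.13 and 1.06), and also with N-Mac (0.63), N-Tri (0.65) and N-Nme (0.39), whereas N-Omt gave 0.056 ± 0.043 (adjusted p = 0.243). AMOTL2 and AJUBA were lower than with CKI in all 4 single removals, down to -0.67 and -0.68.

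Beyond the 10 genes, most of 15 further targets of YAP were lower with CKI. This list and the lists of the next paragraph were chosen with earlier results of these data known. Their counts and medians are therefore a description and no independent support. All 15 were tested, and with CKI 8 were lower and none higher at 24 h (14.8% of all genes lower), 12 lower and 1 higher at 48 h in batch 1 (27% lower), and 13 lower and 1 higher in batch 2 (34.2% lower). Their median log2 fold changes were -0.44, -0.64 and -0.81, where the medians of all genes tested were 0.02, 0.008 and -0.0073. TGFB2, a secreted growth factor, went from 91.6 ± 13.8 to 39.1 ± 10.2 CPM at 24 h (SD, n = 3), from 132 ± 8.7 to 38.2 ± 3.56 at 48 h in batch 1 and from 99.1 ± 1.83 to 17.3 ± 0.603 in batch 2. Its log2 fold changes were -1.23 ± 0.24, -1.78 ± 0.10 and -2.52 ± 0.06, all DE. FJX1, a secreted regulator of planar polarity, had log2 fold changes of -1.11, -1.09 and -1.43 in the same order, and FOXF2, a forkhead transcription factor, had -1.13, -1.25 and -1.19. RBMS3 (an RNA-binding protein), NUAK2 (a kinase) and CCDC80 (a matrix protein) fell in all 3 comparisons too, with -0.74, -0.99 and -0.47 at 24 h and -1.11, -0.95 and -0.70 in batch 2 at 48 h. The list stayed below 0 on the median in all 15 treated groups except OmtOspc at 24 h, but with OmtOspc and MacOmtOspc at 24 h it lay near 0, at 0.05 (2 higher and 2 lower; 9.03% of all genes higher and 7.72% lower) and -0.041 (none higher and 2 lower; 5.61% higher and 4.84% lower). RBMS3 had its lowest levels in the mixtures without oxymatrine, 1.55 ± 0.126 CPM with N-OmtOspc at 48 h against 19.3 ± 0.899 in untreated cells, and 5.04 ± 0.624 with N-Omt against 20.3 ± 2.55 in batch 2.

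**Figure D5:**
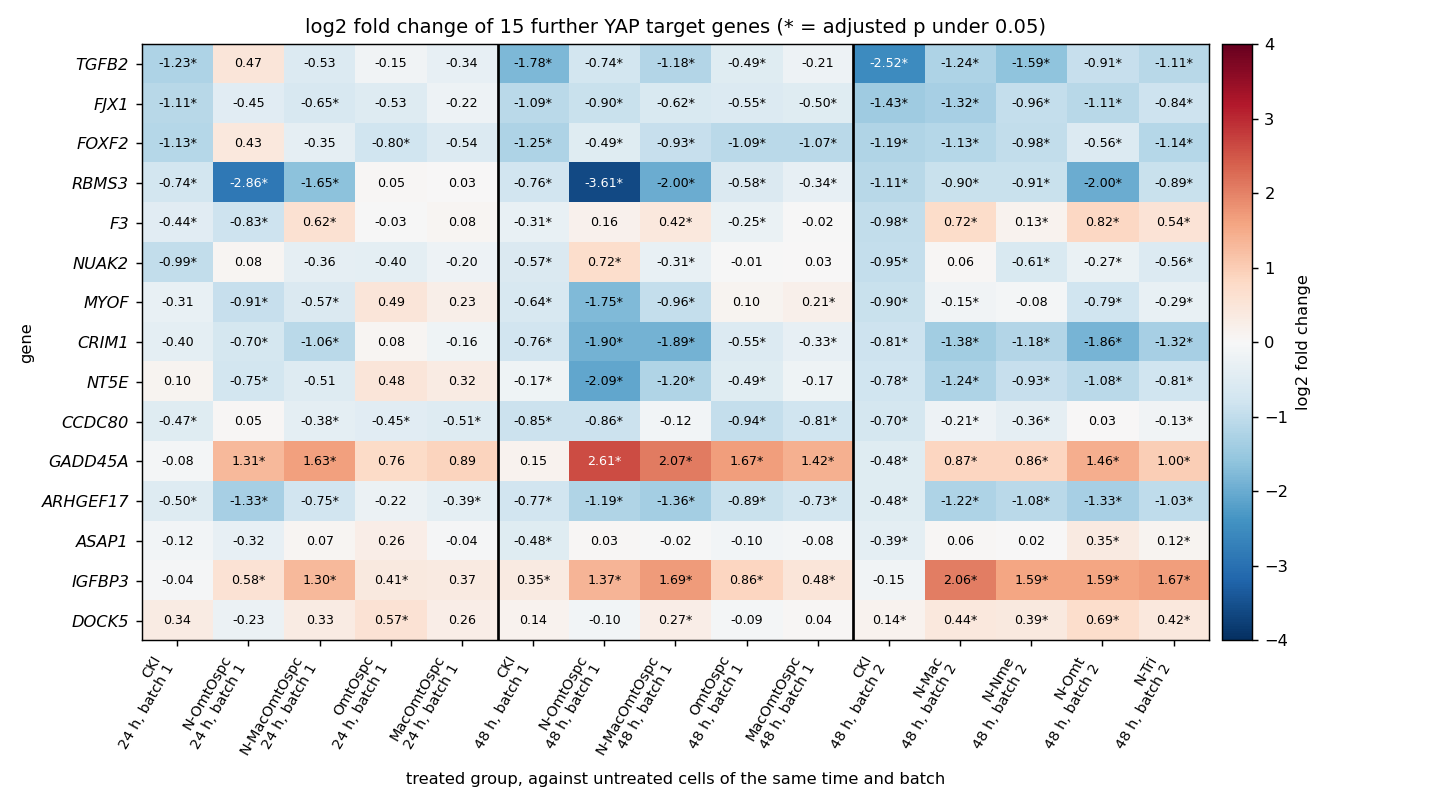
Heatmap of the log2 fold change of 15 further YAP target genes (rows, in the order of their value with CKI in batch 2) in the 15 treated groups (columns), against untreated cells of the same time and batch, with 3 libraries per group. Red is higher, blue is lower and an asterisk marks an adjusted p under 0.05. TGFB2 is at -2.52 with CKI in batch 2 and at -0.91 to -1.59 with the single removals, and RBMS3 is at -3.61 with N-OmtOspc at 48 h.

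Upstream in the pathway, 21 of 22 listed genes had enough counts for a test (AMOT had at most 17 counts per library). With CKI 2 were higher and 1 lower at 24 h (15.3% of all genes higher and 14.8% lower), 4 higher and 8 lower at 48 h in batch 1 (27% in each direction) and 7 higher and 9 lower in batch 2 (32.3% and 34.2%), so that no common direction was seen. RASSF1, a scaffold that binds the MST kinases, fell in all 3, from 59.4 ± 2.7 to 23.8 ± 6.62 CPM at 24 h (SD, n = 3; log2 fold change -1.33 ± 0.27), with -0.93 ± 0.093 and -1.29 ± 0.076 at 48 h. STK4, which encodes MST1, rose by 0.55, 0.48 and 0.33 on the log2 scale, and LIMD1, a LIM protein related to AJUBA, by 0.60, 0.33 and 0.32. Among the other TEAD factors and their VGLL cofactors 5 of 7 were tested (VGLL1 and VGLL2 had at most 1 count per library), and with CKI 2 were higher and 1 lower at 24 h, 1 and 1 at 48 h in batch 1, and 4 and 1 in batch 2. VGLL3, a cofactor that binds TEAD in place of YAP, rose by 0.82 ± 0.23, 0.71 ± 0.10 and 0.71 ± 0.091, and TEAD4 had log2 fold changes of -0.46, -0.54 and -0.78, all DE. In the mixtures at 48 h VGLL3 was higher than with CKI in all 8, reaching 17.2 ± 0.632 CPM with OmtOspc against 5.74 ± 0.557 in untreated cells, and 25.1 ± 0.308 with N-Tri against 7.27 ± 0.26.

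Across the 15 treated groups the log2 ratios to untreated cells of AMOTL2 and CTGF were the most alike of any pair among the 10 genes (Pearson r = 0.892). Those of ANKRD1 and AXL had r = 0.798, AMOTL2 and AJUBA 0.793, ANKRD1 and CYR61 0.773, and CTGF and CYR61 only 0.542. YAP1 correlated weakly or negatively with the usual targets (-0.408 with CTGF, -0.0912 with CYR61 and 0.0978 with ANKRD1), and WWTR1 with TEAD1 gave 0.641. Groups of a time and batch share their untreated libraries, so these values describe 15 dependent points and carry no p. Among 9785 genes that averaged 10 CPM or more, the profiles nearest to CTGF were those of FASN (r = 0.943), FAM171A1 (0.939), ITGB2 (0.938), MED15 (0.929) and LMNA (0.925). For CYR61 they were SRM (0.885), COMMD7 (0.878), AFAP1L1 (0.862), TRIO (0.86) and TSNARE1 (0.851), and for YAP1 they were OXSR1 (0.938), CNOT2 (0.938), NAA15 (0.918), MCL1 (0.917) and ZNF644 (0.916).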

How the data were processed

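Strand-specific paired-end RNA-seq of poly(A) RNA was deposited by the authors as 1 table of raw counts per gene. Per the labels, their processing used FastQC 0.11.4, Trim Galore 0.3.7, STAR 2.5.3a, Subread 1.5.2 (featureCounts), edgeR 3.22.3 and hg19. The strand setting of the counting is not given in the sources used here. Counts were analysed as deposited with edgeR 4.0.16 in R 4.3.3 (filterByExpr, TMM factors, quasi-likelihood F-test), with 1 fit for the 18 libraries of each time and batch, and 1 fit of 12 libraries for each difference of the CKI effect between batches and between times. p-values were adjusted over all genes tested (14834 to 15513 per fit), and DE means an adjusted p under 0.05. Fold changes are given with their SE, and levels as CPM. The steps were tested on simulated data. The alternatives were RLE size factors, library sizes alone, DESeq2 1.42.0, no filter beyond 1 count, only the groups compared, a replicate block and leaving out libraries. The design text describes the 3 libraries of a group as biological replicates. The 10 genes and the wider lists were chosen with earlier results of these data known. All 10 genes are named, and from each wider list at most 6 genes that were DE in the same direction in all 3 CKI comparisons, those of largest mean change. Genes most like CTGF, CYR61 and YAP1 are the 5 of highest Pearson r.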

Additional observations from a re-analysis of the deposited data

Results flagged for a closer look

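For 5 of the 10 genes (13.8% of all genes) the effect of CKI at 48 h differed between the batches by the interaction test of edgeR. The effect in batch 2 minus that in batch 1 was -0.91 on the log2 scale for CTGF, -0.73 for CYR61, -0.62 for ANKRD1, -0.28 for AXL and 0.32 for LATS2, the last of them lost in 4 of the 12 fits without 1 library. For AMOTL2 the effect of CKI differed between 48 h and 24 h in batch 1 by -0.35 (1.56% of all genes differed), and this held in only 2 of the 12 fits without 1 library.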

How the results depend on the processing

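No log2 fold change of the 10 genes that was DE changed its sign under any alternative run, and 90 of 3870 values changed sign without being DE in either fit. The number of the 10 genes that were DE moved by over 1.5 times as follows. Without the 3 libraries that carry no replicate number, N-MacOmtOspc at 24 h had 8 against untreated cells in place of 4. With only the groups compared in the fit, MacOmtOspc at 24 h had 5 in place of 3, OmtOspc against CKI at 24 h had 0 in place of 2, and untreated cells at 48 h against 24 h had 7 in place of 2. MacOmtOspc at 48 h had 7 in place of 4 with RLE size factors, with only the groups compared and with DESeq2. The difference of the CKI effect between the times was DE for 2 genes with RLE size factors, 2 with library sizes alone and 0 with the replicate block, in place of 1. Leaving out 1 library gave 0 to 4 for that difference, 1 to 4 for untreated cells between the times, 2 to 5 for N-MacOmtOspc and 2 to 3 for OmtOspc against untreated cells at 24 h, and 3 to 6 for N-OmtOspc against CKI at 24 h. The cause of these moves was not tested. The replicate numbers did not pair the samples (0 of 15 groups with every correlation over 0.1, range -0.37 to 0.41).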
